A study of Mus musculus with 2 samples.

Results

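The nuclear-encoded subunits of respiratory chain complexes II to V were examined in single-cell RNA-seq of adult hippocampal cells from control and Opa1 conditional knockout (cKO) mice. Members were taken by symbol: Sdha to Sdhd of complex II, the Uqcr genes and Cyc1 of complex III, cytochrome c (Cycs), the Cox4 to Cox8 genes of complex IV and the Atp5 genes of complex V. The rule found 49 symbols among 22587, and 48 of them had 20 or more UMIs over both libraries. They were 4 genes of complex II, 9 of complex III, Cycs, 18 of complex IV and 17 of complex V, and the gene without a UMI was Cox8c. The rule used no measured difference.

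Complex II oxidizes succinate and is also an enzyme of the tricarboxylic acid cycle. Complex III passes electrons to cytochrome c, complex IV passes them on to oxygen, and complex V makes ATP from the proton gradient. Complexes III, IV and V each contain at least 1 subunit translated inside mitochondria from mitochondrial DNA, whereas all subunits of complex II are encoded in the nucleus. Opa1 is a dynamin-related GTPase of the inner membrane that joins mitochondria and shapes the cristae in which these complexes sit.

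Control mice (CT) were Nestin-CreERT2:Rosa26YFP animals without a floxed Opa1 allele, and Opa1 cKO mice carried floxed Opa1 in addition to both transgenes. The strain label names all 3 alleles for both samples. Both groups received tamoxifen at 8 weeks of age, and YFP+, propidium iodide-negative hippocampal cells were sorted at 12 weeks of age, 4 weeks post-TAM. Each genotype was 1 library of 3 pooled mice, so there was no replicate, no test was made, and the 95% intervals given here cover counting error only. Recombination followed the Nestin promoter of the Cre transgene, and the cells compared were those that had expressed YFP at that time.

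The libraries held 10799936 UMIs in 4634 barcodes (CT) and 18662032 in 6475 (Opa1 cKO), of which 1790 and 3764 cells were kept, with a median of 2555 and 3008 UMIs. Both libraries contained 36 of the same barcodes, 9 of them among kept cells. Cells were grouped into classes by fixed markers. NSC pool-like cells, named from astrocyte and stem cell markers, numbered 1377 in CT and 2587 in Opa1 cKO. Of the latter 1796 (3 of the former) formed a cluster that was led by stress genes such as Nupr1, Gdf15, Ddit3 and Trib3. Against all other cells this cluster did not reach 3 markers of any class. Against only the clusters named as other cell types, it carried 9 of 13 NSC pool markers. The other NSC pool-like cluster carried 5 of 13 against all other cells. The mt- share, the percentage of a cell's UMIs from the 13 mitochondrially encoded mRNAs, differed widely in NSC pool-like cells, with a median of 5.24% for CT against 0.67% for Opa1 cKO. Of the Opa1 cKO cells 1580 had a low share (under 1%), 844 a normal share (2% or more) and 163 lay between, whereas 1364 CT cells had a normal share and 2 a low share. This split nearly followed the clusters. The cluster led by stress genes held 1578 of the low and 56 of the normal Opa1 cKO cells. The other NSC pool-like cluster held 2 of the low and 788 of the normal cells. NSC pool-like cells held 70 UMIs of Opa1 itself in the CT library and 68 in the other, or 19.7 and 8.17 CPM (log2 ratio -1.27, -1.77 to -0.77). Low cells had 34 Opa1 UMIs, or 6.50 CPM (-1.60 over CT, -2.24 to -0.99). Normal cells had 33 Opa1 UMIs, or 12.6 CPM (-0.65 over CT, -1.29 to -0.03). Whether these tags lie in the deleted part of the gene is not given in the sources used here. The summed level of 4 red cell genes was 298 CPM in CT NSC pool-like cells and 9.56 and 9.14 CPM in Opa1 cKO cells of low and normal mt- share, and the part of such foreign RNA in the member values was not tested.

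The members as a group were slightly higher in Opa1 cKO NSC pool-like cells, and complex II had the highest ratio of the complexes. Levels are given as CPM, UMIs of a gene per 1000000 nuclear-encoded UMIs of the class. Because the 3′ assay reads 1 tag per molecule, CPM was not divided by gene length. All members together had 29839 (CT) and 33110.1 CPM (Opa1 cKO), 2.98% and 3.31% of nuclear-encoded UMIs, a log2 ratio of 0.15 (0.14 to 0.16) or 1.11-fold. The median log2 ratio over 47 members with 100 or more UMIs was 0.13, beside 0.01 over all 8756 genes of that depth. Of these members 8 had a log2 ratio of 0.5 or more, 17.0% against 14.1% of all genes, and 3 had a ratio of -0.5 or less, 6.38% against 16.3% of all genes. The 8 include Cox6a2, with 1 UMI in CT and 162 in Opa1 cKO. It met the rule of 100 UMIs only through the library where it was high, so its place among the 8 was fixed by that rule. The genes of the background were admitted by the same rule. The counting interval lay wholly above 0 for 30 members and wholly below 0 for 7. The share of all genes with such intervals was not computed, so these 2 counts mark no property of the members. Since the share past the upper bound was near that of all genes, the count marks no property of the members. The share past the lower bound was smaller than the background, which was not matched to the members in depth or coding length. It is therefore not read as a property of the members.

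**Figure D1:**
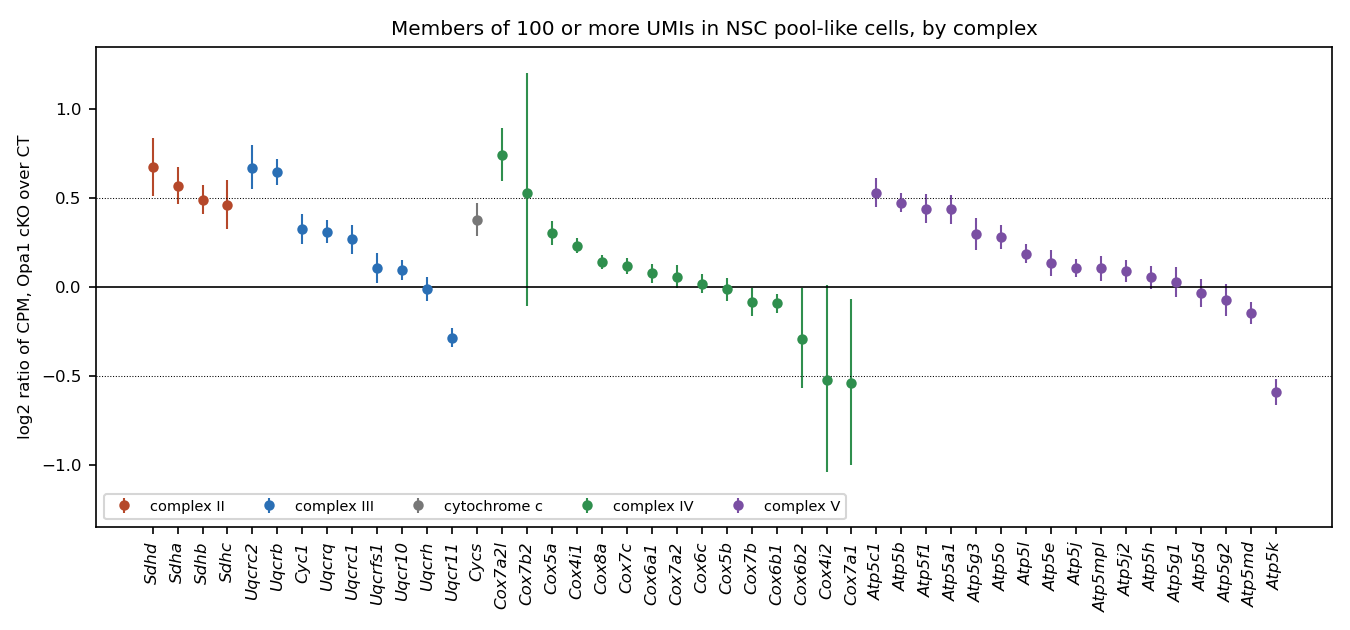
Log2 ratio of CPM, Opa1 cKO over CT, for each member of 100 or more UMIs in NSC pool-like cells, ordered within each complex, with bars for the 95% counting interval and dotted lines at ratios of 0.5 and -0.5. Cox6a2 (log2 ratio 6.11) lies above the axis and is not drawn. The 4 complex II genes all lie at 0.46 or more, and Uqcr11 and Atp5k lie lowest in complexes III and V.

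Of the complexes, complex II had the highest ratio. Its 4 genes summed to 996 (CT) and 1438 CPM (Opa1 cKO) NSC pool-like cells, a log2 ratio of 0.53 (0.48 to 0.58) or 1.44-fold. Sdhb, the iron-sulfur subunit and the complex II gene of highest level, had 451 (CT) and 634 CPM (Opa1 cKO) (0.49, 0.41 to 0.57). Sdha, the flavoprotein that binds succinate, had 273 and 405 CPM (0.57, 0.47 to 0.67). Sdhc and Sdhd anchor the enzyme in the membrane. Sdhc had 159 and 219.5 CPM (0.46, 0.33 to 0.60), the lowest ratio of the 4, and Sdhd had 113 and 179.6 CPM (0.67, 0.51 to 0.84), the highest. Thus the 4 genes shared a direction and a narrow range of size.

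The promoters of 3 of these genes are shown as examples chosen after their ratios were seen, and that of Sdhc is not shown. Any link between their letters and the ratios was not tested. Sequences are RefSeq promoter windows of GRCm38.p6 from 250 bases before to 50 after the start, read in the direction of the gene. Capitals mark exact matches on either strand to GCGCATGC, letters of the NRF1 motif, or to CCGGAAG, letters of the GABP motif. Sdha (chr13:74350191-74350490, minus strand) held neither, Sdhb (chr4:140961021-140961320, plus strand) held both, and Sdhd (chr9:50603800-50604099, minus strand) held GABP letters alone.
Sdha: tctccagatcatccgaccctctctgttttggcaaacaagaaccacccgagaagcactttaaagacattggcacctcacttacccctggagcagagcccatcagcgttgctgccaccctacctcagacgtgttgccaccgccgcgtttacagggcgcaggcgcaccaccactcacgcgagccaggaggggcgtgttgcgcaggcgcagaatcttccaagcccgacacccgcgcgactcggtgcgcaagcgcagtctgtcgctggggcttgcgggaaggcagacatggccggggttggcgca
Sdhb: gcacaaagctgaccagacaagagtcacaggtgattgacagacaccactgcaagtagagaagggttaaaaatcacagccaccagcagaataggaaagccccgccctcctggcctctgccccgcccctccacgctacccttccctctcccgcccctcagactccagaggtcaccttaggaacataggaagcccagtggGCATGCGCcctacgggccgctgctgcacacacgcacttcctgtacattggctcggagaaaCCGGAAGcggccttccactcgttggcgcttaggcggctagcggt
Sdhd: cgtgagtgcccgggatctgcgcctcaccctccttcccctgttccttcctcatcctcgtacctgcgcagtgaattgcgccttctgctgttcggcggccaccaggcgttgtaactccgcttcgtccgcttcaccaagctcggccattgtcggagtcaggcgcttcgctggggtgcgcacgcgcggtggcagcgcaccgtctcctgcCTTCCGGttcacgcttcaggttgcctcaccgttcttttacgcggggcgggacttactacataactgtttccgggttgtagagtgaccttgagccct

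Among 40 promoter windows of the 37 members that matched by symbol, 8 (20%) held the NRF1 letters, against 2.71% of 32851 windows, and 13 (32.5%) held the GABP letters, against 8.86%. The YY1 letters AAGATGGCG, searched on both strands, were in 2 windows (5%), those of Atp5j and Atp5j2, against 1.40%. The ATF4 letters TGATGCAA were in 0 member windows, against 0.895% of all windows, and no match says only that these letters are not in the window. The median log2 ratio in NSC pool-like cells was 0.13 for the 8 members with NRF1 letters and 0.11 for 28 without, and 0.08 for the 13 with GABP letters and 0.12 for 23 without. Low over normal mt- share within Opa1 cKO, the medians were 0.03 with (8) and -0.12 without NRF1 letters (27), and -0.11 with (13) and -0.07 without GABP letters (22). The ranges of members with and without the letters overlapped in both comparisons.

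In complex III the sum was 5697 (CT) and 6361 CPM (Opa1 cKO) (0.16, 0.14 to 0.18), but its members ranged from -0.29 to 0.67. Uqcrc2, a core protein of the matrix side, had 189 and 300.3 CPM (0.67, 0.55 to 0.80). Uqcrb, the subunit that binds ubiquinone, had 538 and 843 CPM (0.65, 0.57 to 0.72). Cyc1, the heme-bearing cytochrome c1, had 414 and 519 CPM (0.33, 0.24 to 0.41). Uqcr11, a small accessory subunit and the complex III gene of highest CPM in CT, went the other way, with 1216 and 997 CPM (-0.29, -0.34 to -0.23). Of 9 genes 7 had intervals above 0 and 1, Uqcr11, below 0, with no share of all genes to set beside these counts. Cycs, the electron carrier between complexes III and IV that also takes part in apoptosis, had 351 and 456 CPM (0.38, 0.28 to 0.47).

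Complex IV was the least changed sum, with 11419 (CT) and 12274 CPM (Opa1 cKO) (0.10, 0.09 to 0.12). Cox8a, which had the highest level of all members in CT, had 1822 and 2008 CPM (0.14, 0.10 to 0.18). Cox4i1, which binds ATP and regulates the enzyme, had 1671 and 1963 CPM (0.23, 0.19 to 0.28). Cox7a2l, which takes part in joining complex III and complex IV into supercomplexes, was an exception with 132 and 221 CPM (0.74, 0.60 to 0.89). In CT its NSC pool-like level was the lowest of the classes, the others lying between 208 CPM in oligodendrocyte-like and 421 CPM in endothelial-like cells. The other members past the bounds were tissue isoforms of low count. They were Cox6a2 at 6.11, Cox7b2 at 0.53 (-0.11 to 1.2), Cox7a1 at -0.54 (-1.0 to -0.07) and Cox4i2 at -0.52 (-1.04 to 0.01).

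In complex V the sum was 11376 (CT) and 12582 CPM (Opa1 cKO) (0.15, 0.13 to 0.16). Atp5c1, the gamma shaft, had 449 and 648 CPM (0.53, 0.45 to 0.61), Atp5b, the catalytic beta subunit, 947 and 1316 CPM (0.47, 0.42 to 0.53), and Atp5a1, the alpha subunit, 469.9 and 636 CPM (0.44, 0.36 to 0.52). The other subunits of the same head had lower ratios, Atp5d (delta) with 529 and 516 CPM (-0.04, -0.12 to 0.04) and Atp5e (epsilon) with 556 and 610.1 CPM (0.13, 0.06 to 0.21). Atp5f1, the b subunit of the peripheral stalk, had 458 and 621 CPM (0.44, 0.36 to 0.52). The 3 genes for the c ring, whose proteins differ mainly in the import signal, had ratios of 0.03 (Atp5g1, 447 and 455 CPM), -0.08 (Atp5g2, 402 and 382 CPM) and 0.30 (Atp5g3, 369 and 454 CPM), and only the interval of Atp5g3 (0.21 to 0.39) lay above 0. Atp5j, a stalk subunit, had the highest level in CT, 1206 CPM, and 1298 CPM in Opa1 cKO (0.11, 0.06 to 0.16). Atp5k, the e subunit that helps ATP synthases to pair, had the lowest ratio, with 698 and 463 CPM (-0.59, -0.67 to -0.52).

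The windows of Cox7a2l, Uqcr11 and Atp5k are shown as examples of members away from the middle of their complexes, chosen after their ratios were seen. Those of Uqcrc2 and Atp5c1, the highest in complexes III and V, are not shown. Cox7a2l (chr17:83514284-83514583, minus strand) held none of the 4 letter strings, while Uqcr11 (chr10:80406772-80407071, minus strand) and Atp5k (chr5:108434350-108434649, minus strand) each held NRF1 and GABP letters, in capitals as above. In Atp5k the NRF1 letters match on both strands at overlapping positions. Sdhb (0.49), Atp5l (0.19) and Cox6a1 (0.08) had NRF1 and GABP letters too, and any link to the ratios was not tested.
Cox7a2l: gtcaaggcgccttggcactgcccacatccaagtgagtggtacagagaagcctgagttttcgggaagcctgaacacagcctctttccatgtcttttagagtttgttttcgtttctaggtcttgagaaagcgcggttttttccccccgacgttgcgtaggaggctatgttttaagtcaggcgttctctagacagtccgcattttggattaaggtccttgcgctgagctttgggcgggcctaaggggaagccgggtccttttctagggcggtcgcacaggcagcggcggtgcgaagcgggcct
Uqcr11: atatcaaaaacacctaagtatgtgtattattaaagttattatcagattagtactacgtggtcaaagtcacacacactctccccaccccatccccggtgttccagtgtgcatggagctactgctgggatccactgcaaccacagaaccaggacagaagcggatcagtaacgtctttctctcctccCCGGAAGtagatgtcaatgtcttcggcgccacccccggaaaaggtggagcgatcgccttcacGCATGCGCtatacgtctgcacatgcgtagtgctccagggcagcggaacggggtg
Atp5k: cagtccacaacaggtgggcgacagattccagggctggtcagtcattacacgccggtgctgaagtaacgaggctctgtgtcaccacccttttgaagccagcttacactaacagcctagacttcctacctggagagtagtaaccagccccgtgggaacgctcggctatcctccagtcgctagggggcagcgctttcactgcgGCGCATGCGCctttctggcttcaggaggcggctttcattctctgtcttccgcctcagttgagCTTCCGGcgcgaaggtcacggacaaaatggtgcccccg

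In NSC pool-like cells the members' log2 ratio varied with gene size, in the direction opposite to that of other genes. In several other classes, where fewer UMIs were counted, the correlation over members was small. The coding length was taken from the annotation, and the Spearman correlation with the log2 ratio in NSC pool-like cells was 0.46 over 47 members and -0.39 over 8739 genes. Members of up to 400 coding bases had a median of 0.09 (25 genes) and longer ones of 0.32 (22 genes), whereas over all genes the medians were 0.16 (497 genes) and -0.01 (8242 genes). The points share both libraries, and large catalytic subunits and small accessory subunits differ in length by their role. Over the members of other classes the correlation was 0.54 in ependymal-like and 0.20 in progenitor and neuron-like cells, 0.10 in mural-like, 0.04 in oligodendrocyte-like, -0.04 in endothelial-like and -0.03 in activated NSC-like cells. Over all genes it was -0.18, -0.36, -0.18, -0.35, -0.32 and -0.11 in the same order. These classes held 720 to 8530 member UMIs in CT, against 106039 in NSC pool-like cells. Small correlations there are therefore not read as absence of the relation. These correlations are a description across genes, which are not independent replicates.

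Cells of low and of normal mt- share both had higher member CPM than CT, and among the sums by complex, Cycs and complex II differed most between them. Nearly all low cells lay in the cluster led by stress genes and most normal cells in the other. Differences between them by mt- share and by cluster therefore cannot be told apart. In low cells the members had 33029.9 CPM, a log2 ratio over CT of 0.15 (0.14 to 0.16), and in normal cells 33706 CPM, a ratio of 0.18 (0.16 to 0.19). The medians of all genes were 0.06 and -0.08 in the same comparisons. Low over CT, 12 of 45 members lay at 0.5 or more (background 20.8%) and 3 at -0.5 or less (18.2%). The 12 include Cox6a2, which was admitted only through its UMIs in low cells. Normal over CT, 3 of 45 lay at 0.5 or more (2.99%), Uqcrb at 0.63, Uqcrc2 at 0.60 and Atp5c1 at 0.50, and 0 at -0.5 or less (14.5%). Since both comparisons use the same CT cells, the values are given side by side and not as support for each other. Complex II had a ratio of 0.63 (0.58 to 0.69) in low cells and 0.31 (0.24 to 0.38) in normal cells, and Cycs of 0.51 (0.41 to 0.60) and 0.14 (0.02 to 0.26). Complex V had ratios of 0.13 (0.11 to 0.15) and 0.20 (0.18 to 0.22) in that order, complex III of 0.15 (0.13 to 0.18) and 0.20 (0.17 to 0.23), and complex IV of 0.10 (0.08 to 0.12) and 0.13 (0.11 to 0.15).

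Compared directly within the Opa1 cKO library, low cells had a sum of -0.03 (-0.04 to -0.02) on the log2 scale against normal cells, when the median of all genes was 0.18. With all UMIs as the denominator it turned to 0.047, and every ratio of this comparison shifts by the same amount. Of 45 members 2 lay at 0.5 or more (19.9% of all genes) and 1 at -0.5 or less (6.08%). The higher pair was Cox6a2 (3.63, 2.47 to 5.10) and Cox7a2l, which had 251 CPM in low and 158 CPM in normal cells (0.67, 0.51 to 0.83). Here too Cox6a2 was admitted only through its UMIs in low cells. The lower was Cox6b2, an isoform best known from testis, with 28.9 and 50.7 CPM (-0.81, -1.16 to -0.46). Complex II was higher in low cells by 0.32 (0.26 to 0.38) and Cycs by 0.36 (0.26 to 0.47). Complex V was at -0.07 (-0.09 to -0.05), about the size of that shift, so its direction depended on the denominator. Uqcr11 was lower in low cells, with 891 against 1229 CPM (-0.46, -0.53 to -0.40), and in normal cells its level was that of CT (0.02, -0.05 to 0.08). Uqcrb hardly differed between the cells, at 856 and 829 CPM (0.05, -0.03 to 0.12), and Uqcrc2 was at 309 and 286 CPM (0.11, -0.01 to 0.24). Atp5k lay below CT in both, at 434 CPM in low and 524 CPM in normal cells against 698 CPM. Relative to CT, normal cells had intervals above 0 for 33 of 45 members and below 0 for 1, Atp5k. Uqcrb, Uqcrc2 and Atp5c1 were among these 33. The share of all genes with such intervals was not computed, so these counts mark no property of the members. Opa1 itself had 12.6 CPM in these normal cells, against 6.50 CPM in low and 19.7 CPM in CT cells.

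**Figure D2:**
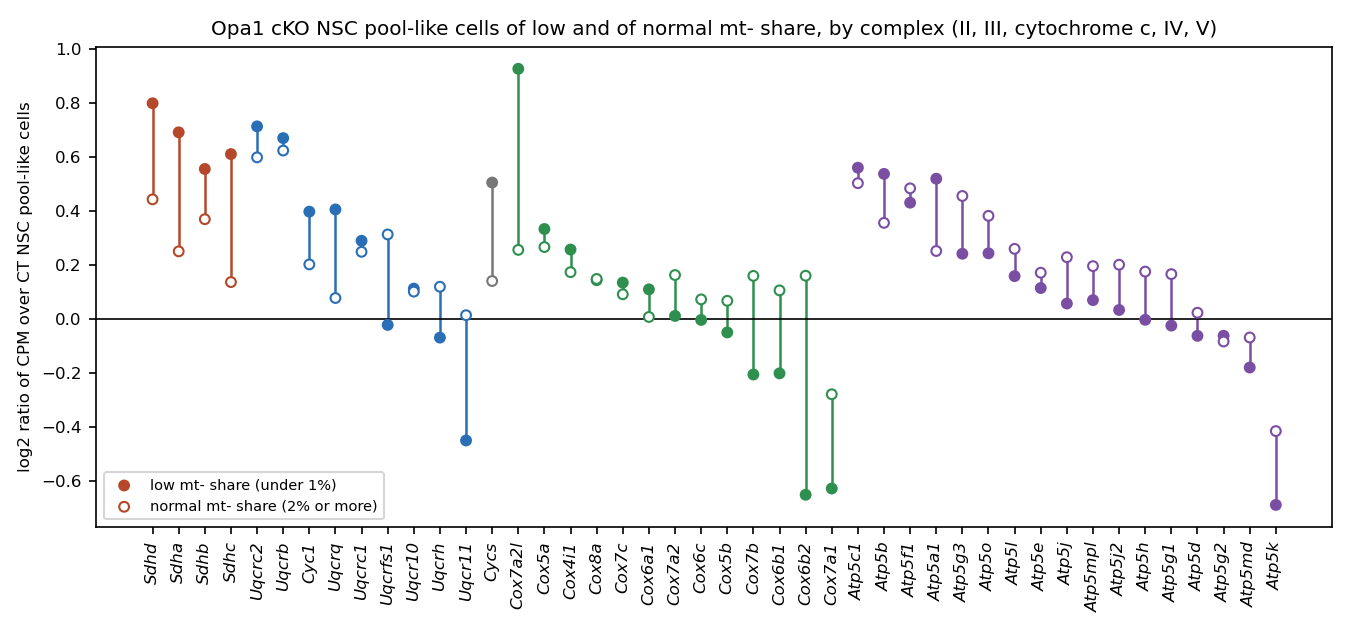
Log2 ratio of CPM over CT NSC pool-like cells for Opa1 cKO cells of low mt- share (filled) and normal mt- share (open), 1 pair of points per member with 100 or more UMIs in both comparisons, ordered by complex. Filled points lie above open ones for all 4 complex II genes, Cycs and Cox7a2l, and below for Uqcr11, Cox6b2 and Atp5k. Cox6a2 is not drawn.

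Across 6 bins of mt- share, complex II and Cycs were lower at higher shares in Opa1 cKO and complexes III, IV and V were not. In Opa1 cKO cells complex II had 1566 CPM (1524 to 1609) below 0.5%, 1503 CPM from 0.5 to 1%, 1383 CPM from 1 to 2%, 1204 CPM from 2 to 4%, 1279 CPM from 4 to 8% and 1069.5 CPM (956 to 1193) from 8 to 20%. In CT cells it had 1049.6, 1001 and 908 CPM (830 to 992) in the last 3 bins. Each CT value lay below that of the Opa1 cKO bin of the same share, but from 8 to 20% the intervals overlapped. Cycs had 512, 475, 360.2, 403, 391.6 and 331 CPM across the Opa1 cKO bins, and 333, 367 and 314 CPM in the last 3 CT bins. Complex V instead had 12549.7 CPM in Opa1 cKO below 0.5%, 11374 CPM from 1 to 2% and 13821 CPM from 8 to 20%, and complex III had 6374, 5837 and 7192 CPM in these bins. Cox7a2l had 249 CPM below 0.5% and 146 CPM from 8 to 20% in Opa1 cKO, against 130.3 to 132 CPM in the last 3 CT bins. The median depth of these Opa1 cKO bins lay between 2623 and 3078 UMIs. In the last 3 bins it was 2281, 2602.5 and 2587 UMIs for CT, against 2803, 3076 and 3078 UMIs for Opa1 cKO. The part of depth in the differences between the libraries was not tested in these bins. The CT bins below 2% held 2 and 11 cells and are not read. Nearly all Opa1 cKO cells below 1% lay in the cluster led by stress genes. Share and cluster are therefore not separated between those bins and the bins of 2% or more.

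**Figure D3:**
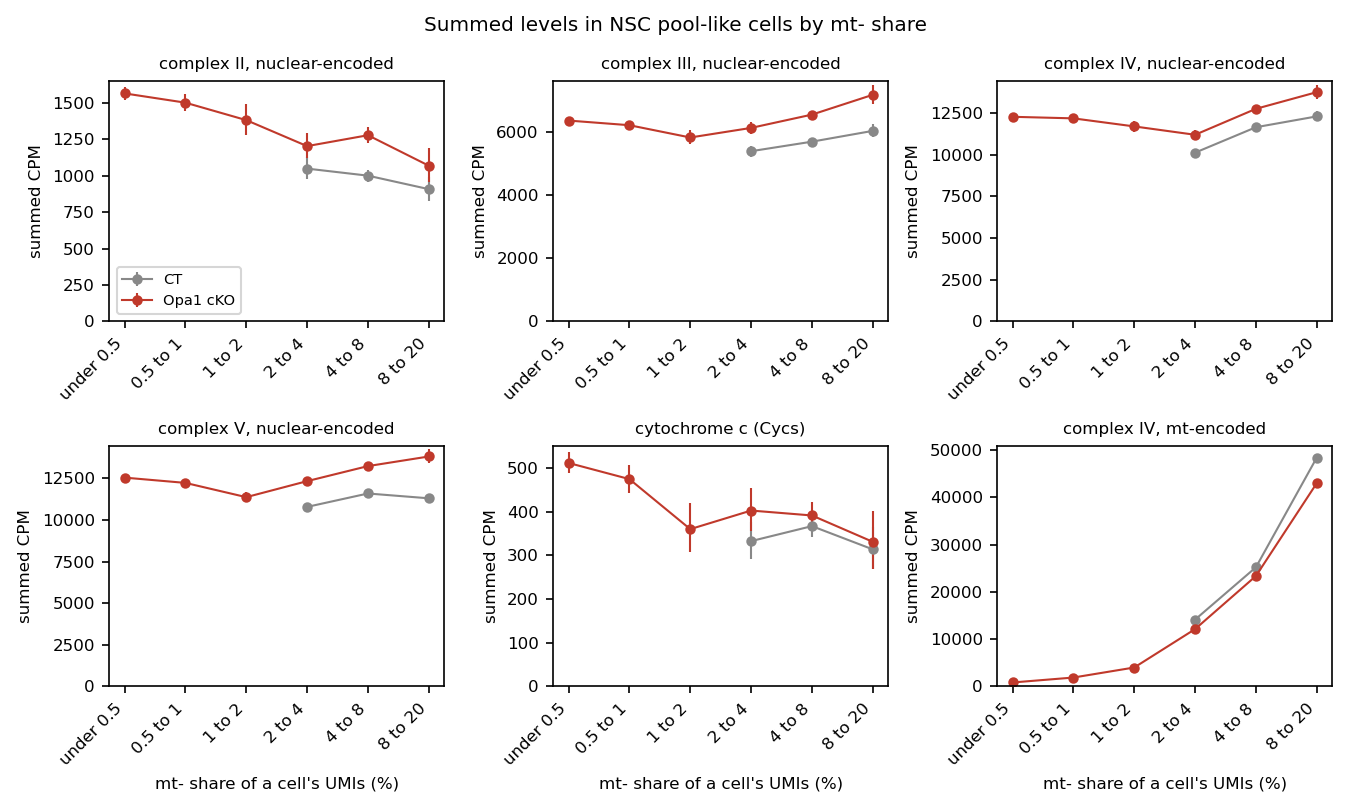
Summed CPM (with 95% counting interval) in NSC pool-like cells by mt- share of the cell, for the nuclear-encoded members of each complex, Cycs, and the mitochondrially encoded subunits of complex IV. CT bins below 2% held 13 cells and are left out. Complex II falls from 1566 to 1069.5 CPM from the lowest to the highest bin of Opa1 cKO, while the mitochondrially encoded sum rises because the bins were set by it.

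Of the 6 mitochondrially encoded partners of these subunits 5 were lower in Opa1 cKO. In all Opa1 cKO NSC pool-like cells the log2 ratio over CT was -1.49 for mt-Cytb of complex III, -1.69 for the 3 mt-Co genes of complex IV and -1.34 for mt-Atp6 and mt-Atp8 of complex V. The last sum was nearly all mt-Atp6. For mt-Atp8 few UMIs were counted (34 for CT, 144 for Opa1 cKO), with 9.57 and 17.3 CPM (0.86, 0.31 to 1.44). How tags were assigned among neighbouring mitochondrial genes is not given in the sources used here, so this value is not read as a rise of that mRNA. In low cells the ratios for complexes III, IV and V were -3.80, -4.51 and -3.68, and in normal cells -0.09, -0.21 and 0.08. The mt- share chose the cells, so these splits are a description. For each mitochondrially encoded complex IV UMI there were 0.43 nuclear-encoded ones in CT, 10.6 in low cells and 0.55 in normal cells. The corresponding values for complex III were 0.63, 9.77 and 0.77, and for complex V 0.80, 11.2 and 0.87. In low cells the nuclear sums of these complexes thus lay 0.10 to 0.15 above CT on the log2 scale, beside partner levels up to 22.8-fold lower.

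Every class had a higher member sum in the Opa1 cKO library, including oligodendrocyte-like cells, in which the mt- share was alike. Progenitor and neuron-like cells (139 CT and 170 Opa1 cKO) had a log2 ratio of 0.26 (0.22 to 0.30). The ratio was 0.23 (0.16 to 0.29) in ependymal-like cells (39 and 244), 0.14 (0.09 to 0.20) in mural-like cells (94 and 168) and 0.16 (0.11 to 0.22) in endothelial-like cells (55 and 89). It was highest in oligodendrocyte-like cells (74 and 101), from 17311 to 21464 CPM, or 0.31 (0.26 to 0.36), where the median mt- share was 4.85% in CT and 4.77% in Opa1 cKO. There the mitochondrially encoded partners had ratios of -0.13, -0.15 and 0.11 for complexes III, IV and V. Activated NSC-like cells (12 and 405) had 24508 and 27994 CPM, or 0.19 (0.09 to 0.30), a value that rests on 720 CT UMIs and that was 0.016 (-0.091 to 0.12) relative to the median of all genes. In mural-like cells the median of all genes was 0.14, like their member sum, and the median over members was 0.09. The mural-like sum thus did not stand apart from genes in general. The all-gene median lay below the member sum elsewhere, at 0.07 (oligodendrocyte-like), 0.04 (progenitor and neuron-like), 0.08 (ependymal-like) and 0.06 (endothelial-like). Whether the ratio common to all classes belongs to the genotype or to the library cannot be told apart with 1 library each.

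Among members, Uqcrb was higher in 7 of 7 classes, with the interval above 0 in 6, and its largest ratio was in oligodendrocyte-like cells, from 281 to 552 CPM (0.97, 0.59 to 1.36). Uqcrc2 was higher in each of the 5 classes where it had 100 UMIs, at 0.53 to 0.90. Atp5f1 had intervals above 0 in 6 of 7 classes, and Atp5j and Atp5l in 5. Atp5k was lower in 6 of 7 classes, with the interval below 0 in NSC pool-like and in progenitor and neuron-like cells (364 and 287 CPM, -0.35, -0.67 to -0.02). The classes share their 2 libraries, so the agreement among them is not independent.

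The counts past the bounds also differed by class. In progenitor and neuron-like cells 3 of 42 members lay at 0.5 or more (12.6% of all genes), which were Uqcrc2 (0.88), Uqcrb (0.78) and Atp5l (0.55), and 0 at -0.5 or less (14.9%). In ependymal-like cells 10 of 42 lay at 0.5 or more (18.1%), led by Atp5f1, from 166 to 382 CPM (1.21, 0.51 to 2.0), and the Rieske iron-sulfur protein Uqcrfs1, from 87.7 to 201 CPM (1.2, 0.24 to 2.35), and 1, Cox6b2, at -0.5 or less (10.8%). In oligodendrocyte-like cells 12 of 40 lay at 0.5 or more (13.1%) and 0 at -0.5 or less (9.63%). Their leading member was Cox7b, an accessory subunit needed for assembly of complex IV, from 135 to 297 CPM (1.13, 0.59 to 1.70), which in NSC pool-like cells had 536 and 505 CPM (-0.09, -0.16 to -0.01). Cox5a, from 219 to 383 CPM (0.81, 0.37 to 1.26), and Atp5l, from 497 to 851 CPM (0.78, 0.49 to 1.07), followed. Complex II differed less there, from 691 to 786 CPM (0.19, -0.08 to 0.45), than complex III (0.41, 0.29 to 0.54). In other classes complex II had ratios of 0.58 (0.30 to 0.86) in mural-like and 0.52 (0.21 to 0.82) in endothelial-like cells. Their median mt- shares were 3.52% and 3.49% in CT and 2.25% and 3.09% in Opa1 cKO. The complex II ratio was 0.26 (0.05 to 0.47) in progenitor and neuron-like and 0.24 (-0.13 to 0.62) in ependymal-like cells. In activated NSC-like cells it was 0.41 (-0.16 to 1.04), from 25 CT UMIs.

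**Figure D4:**
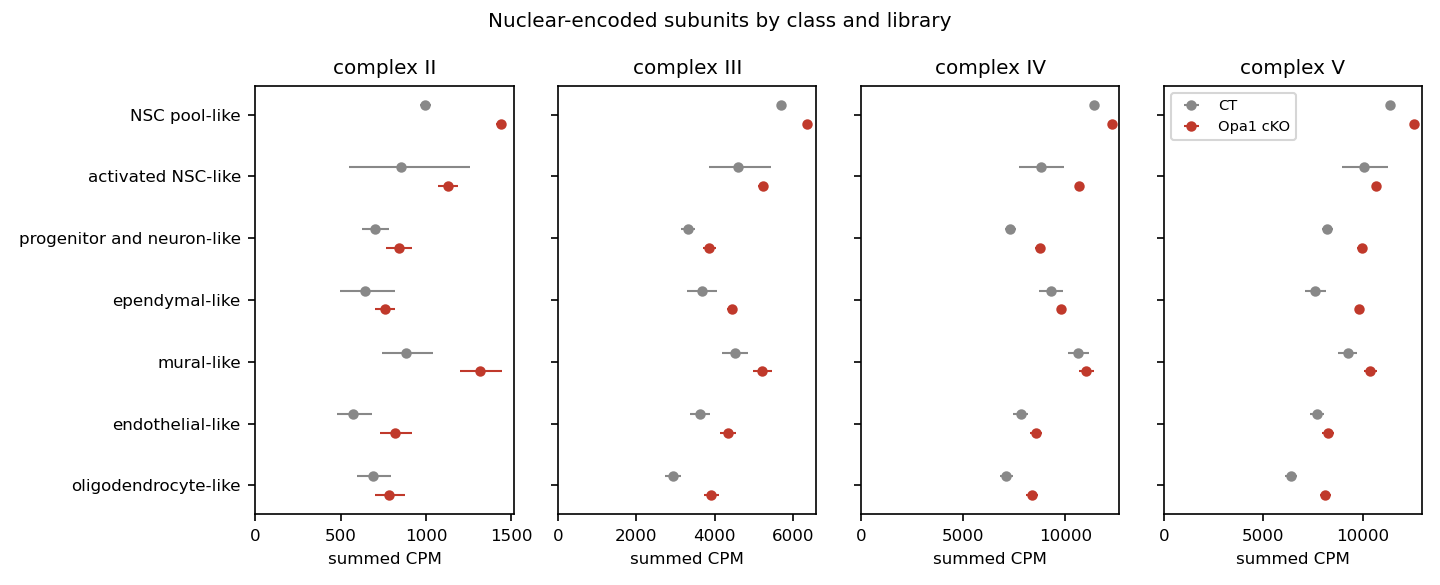
Summed CPM of the nuclear-encoded members of complexes II, III, IV and V in each class, CT in grey and Opa1 cKO in red, with bars for the 95% counting interval. All red points lie to the right of the grey points of the same class, and NSC pool-like cells have the highest level for each complex in both libraries.

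Within the CT library, members were highest in NSC pool-like cells (29839 CPM) and lowest in oligodendrocyte-like cells (17311 CPM, log2 ratio -0.79 against NSC pool-like). Mural-like cells had 25654 CPM (-0.22) and activated NSC-like cells 24508 CPM (-0.28), and their counting intervals overlapped. Ependymal-like cells had 21359 CPM (-0.48). Endothelial-like and progenitor and neuron-like cells had 19918 and 19798 CPM (-0.58 and -0.59), also within each other's intervals. Complex III had the lowest ratio of the complexes in progenitor and neuron-like cells, 3314 CPM against 5697 (-0.78, -0.86 to -0.70), and complex V had 8226 CPM against 11376 (-0.47, -0.52 to -0.42). The median of all genes in that comparison was 0.09. In CT ependymal-like and oligodendrocyte-like cells against NSC pool-like cells it was -0.28 and -0.22, so genes in general were lower there too. In mural-like, endothelial-like and activated NSC-like cells it was -0.03, -0.02 and -0.003.

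Tissue isoforms of complex IV subunits differed in level between classes. In mural-like cells Cox4i2, the hypoxia-responsive alternative to Cox4i1, reached 1376 (CT) and 1111 CPM (Opa1 cKO), near Cox4i1 (1306 and 1350 CPM), and 676 and 568 CPM in endothelial-like cells. In NSC pool-like cells Cox4i2 had 14.4 and 9.98 CPM, with 5.16 CPM in low and 20.2 CPM in normal cells. The summed level of the 8 mural markers in these groups was 160 CPM in CT, 107 CPM in low and 133 CPM in normal cells, with 0, 1 and 0 markers without a UMI, and their part in the Cox4i2 level was not tested. Cox6b2 was highest in ependymal-like cells (205 CPM in CT, 137 CPM in Opa1 cKO), where Cox6b1 had 1053 and 896 CPM. In NSC pool-like cells Cox6b2 had 45.3 and 37.0 CPM. The 6 ependymal markers summed to 143 CPM in CT, 69.98 CPM in low and 184 CPM in normal NSC pool-like cells, the order in which Cox6b2 stood apart between low and normal cells, and their part was not tested. Cox7a1 and Cox8b, known from muscle and heart, had 64 and 23 UMIs in CT NSC pool-like cells. Cox8b had 25 UMIs in Opa1 cKO, 2 of them in low and 23 in normal cells. Cox7b2 had 27 and 91 UMIs.

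Cox6a2, the isoform known from heart and skeletal muscle, was the member that differed most between libraries, and it was counted almost only in Opa1 cKO. Among NSC pool-like cells CT held 1 UMI and Opa1 cKO 162, 0.28 and 19.5 CPM, a log2 ratio of 6.11 with an interval of 3.61 to 11.4. Over all barcodes the CT library held 1 UMI and the Opa1 cKO library 324, in 222 barcodes. In Opa1 cKO NSC pool-like cells 121 cells (4.68%) carried a UMI, at most 4 per cell, and 145 UMIs remained without the 5 cells with most. In oligodendrocyte-like cells of that library, a class outside the lineage, the share was 0.99%, at a median depth of 3914 UMIs against 2962. Other classes outside the lineage had larger shares in that library, 8.33% of mural-like (14 of 168) and 6.74% of endothelial-like cells (6 of 89), at median depths of 1615 and 3826 UMIs. Cells of low mt- share held 148 UMIs, 110 of them below a share of 0.5%, and cells of normal share held 6, or 28.3 and 2.29 CPM. Its ubiquitous partner Cox6a1 had 1165 CPM in low and 1085 CPM in normal cells (0.10, 0.04 to 0.17).

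In the other Opa1 cKO classes Cox6a2 had 59 UMIs in activated NSC-like cells, 22 in mural-like, 13 in progenitor and neuron-like, 10 in endothelial-like, and 2 each in oligodendrocyte-like and ependymal-like cells, against 0 in each CT class. Of the mural-like UMIs 19 fell in the 48 cells of low mt- share and 1 in the 99 of normal share. With CT set at a floor of 3 counts in place of 0, the level was 3.41-fold higher in mural-like and 3.19-fold higher in progenitor and neuron-like cells. The floor is a convention and not a lower bound on the fold. In these classes the CT intervals reached up to 23.6 and 8.56 CPM, and those of Opa1 cKO down to 41.1 and 11.8 CPM. The progenitor and neuron-like value rests on few cells, since 1 UMI remained without the 5 cells with most, as in endothelial-like cells. In activated NSC-like cells 1 cell held 14 UMIs, and 28 UMIs remained without the 5 cells with most. The gene lies at chr7:128205435-128206387 (mm10, minus strand), within Itgad on the opposite strand.

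**Figure D5:**
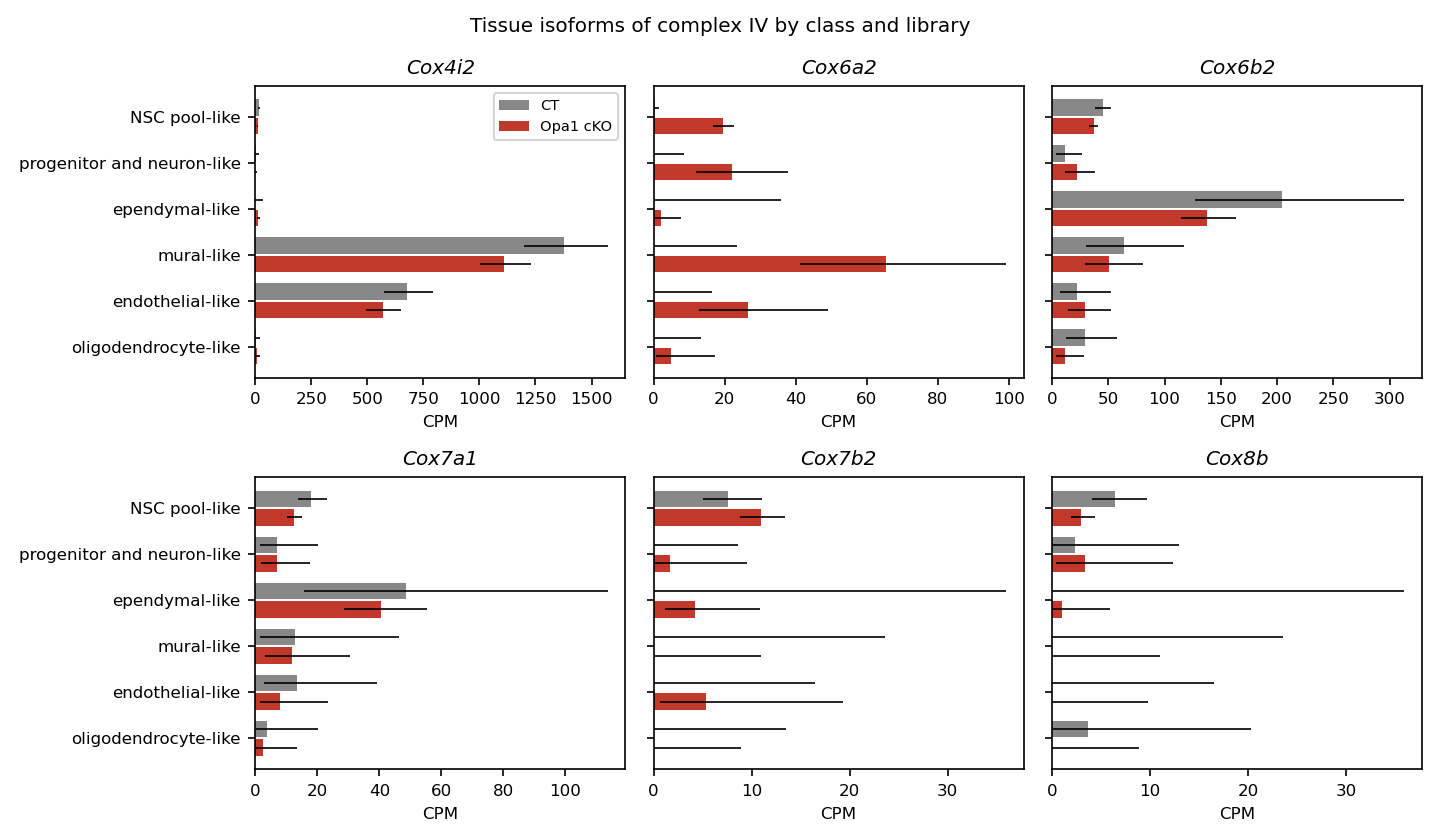
CPM of the tissue isoforms Cox4i2, Cox6a2, Cox6b2, Cox7a1, Cox7b2 and Cox8b by class, CT in grey and Opa1 cKO in red, with bars for the 95% counting interval. Cox4i2 reaches 1376 CPM in mural-like cells, Cox6b2 is highest in ependymal-like cells, and Cox6a2 is drawn in red bars alone apart from 0.28 CPM in CT NSC pool-like cells. Activated NSC-like cells are left out because 1 UMI there equals 34.0 CPM in CT.

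The share of member UMIs in a cell rose with the depth of the cell in both libraries, so depth was compared at matched levels. The Spearman correlation between the 2 was 0.40 over 1377 CT and 0.37 over 2587 Opa1 cKO NSC pool-like cells, where the share also contributes to the depth. Cells with fewer than 2000 UMIs had 25550 (CT) and 28638 CPM (Opa1 cKO), those of 2000 to 3000 had 28257 and 31133 CPM, those of 3000 to 4000 had 31495 and 33470.2 CPM, and those of 4000 or more had 33603 and 34972 CPM. Opa1 cKO was the higher in all 4 bins, by less in the deeper bins. For cells of 2000 to 4000 UMIs, a range chosen after the data were seen, the log2 ratio was 0.13 (0.12 to 0.14).

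Other genes of the pathway moved differently in part. Of 37 assembly factors and further subunits of complexes II to V with 100 or more UMIs in NSC pool-like cells, 14 lay at 0.5 or more and 1 at -0.5 or less, with a median of 0.19 and a summed ratio of 0.08 (0.05 to 0.10). For these and the following lists the share of all genes past the bounds was 14.1% and 16.3%. Among them were 3 complex II assembly factors, Sdhaf3 (25.3 and 50.6 CPM, 1.00, 0.67 to 1.34), Sdhaf1 (0.64) and Sdhaf2 (0.61), as well as Cox16 (0.93) and Lyrm7 (0.88). The remaining complex II assembly factor, Sdhaf4, lay between the bounds, with 92.9 CPM in CT, 88.7 CPM in low and 126 CPM in normal cells (low over normal -0.50, -0.71 to -0.29). Pet100, a chaperone of complex IV assembly, had 171 and 106 CPM (-0.69, -0.84 to -0.54), and the copper chaperone Cox17 had 239 and 169 CPM (-0.50, -0.62 to -0.37). Of 8 regulators of respiratory genes 2 lay at 0.5 or more, Gabpb1 (0.68, 0.03 to 1.38) and the mitochondrial transcription factor Tfb2m (0.55, 0.20 to 0.91). The coactivator Ppargc1a had 92.9 and 68.2 CPM (-0.45, -0.64 to -0.25).

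Nuclear-encoded complex I, taken by Nduf symbols, had the same median as the members, 0.13, but 1 of 37 genes at 0.5 or more and 0 at -0.5 or less, and its sum had a ratio of 0.10 (0.09 to 0.12). Ndufa4 was counted both here and among the further subunits of complexes II to V. It had 1122 CPM in low and 1493 CPM in normal cells, where that other list summed to 4780 and 4960 CPM. Of 77 mitochondrial ribosomal proteins 19 lay at 0.5 or more (median 0.34), and of 88 cytosolic ribosomal proteins 51 lay there and 2 at -0.5 or less (median 0.53). Low over normal within Opa1 cKO, the medians were -0.07 for complex I, 0.32 for mitochondrial and 0.64 for cytosolic ribosomal proteins, and -0.05 for the members. A list of 26 genes of the integrated stress response (ISR) had 21 of its 22 counted genes at 0.5 or more in Opa1 cKO over CT (median 1.86). Because CPM is a share, a higher sum of such genes lowers the share of the rest, and the part of this in the member ratios was not tested.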

How the data were processed

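CT and Opa1 cKO hippocampal YFP+ cells were each 1 library of 3 pooled mice (10x Genomics 3′ v2). The authors counted UMIs per gene and barcode against mm10 and deposited whole-number counts without normalization. The submitters' processing notes name Cell Ranger 2.1.1, while the matrix headers name version 3.1.0. How reads shared with near-identical copies such as processed pseudogenes were counted is not given in the sources used here.

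By the rules stated in the study, cells were kept that had over 600 but under 7500 genes, less than 20% mitochondrial UMIs and detected YFP, here 1 YFP UMI or more. This kept 1790 CT and 3764 Opa1 cKO cells, and 4186 and 6121 would remain without the YFP rule. The paper reports more cells of each genotype than were kept here, so the cells are not the same set. The kept cells were clustered with SCTransform (Seurat 5.3.0, sctransform 0.4.2, R 4.3.3, 8 dimensions, resolution 0.2). A cluster was named when at least 3 fixed markers had a log2 fold over 1 with 10 CPM added. The second NSC pool cluster was named in a further step after the clusters of other types had been named. In that step its markers were compared with those clusters only, and the first NSC pool cluster was left out. The doublet caller of scanpy 1.11.5 marked 3 CT and 1 Opa1 cKO cells, too few to have worked, so no doublets were removed.

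UMIs were summed per library and class, counts of the 2 Atp5o identifiers were joined, and log2 ratios of CPM over nuclear-encoded UMIs were given exact 95% (Clopper-Pearson) intervals, and CPM exact Poisson intervals. Members enter a comparison at 100 or more UMIs over both groups. With 1 library per genotype no p-value was computed, and intervals cover counting error only. Totals of 10799936 and 18662032 UMIs set the precision. In each complex the text names the member of highest CPM in CT NSC pool-like cells, those of highest and lowest ratio, all members past 0.5 either way, tissue isoforms, complex II genes and Cycs, and members named beyond that rule were chosen after their values were seen. The members and lists were chosen with earlier results of these data known, and the cytosolic ribosomal pattern was narrowed to leave out kinases after values had been seen. The script for ratios was tested on simulated counts. Alternatives changed the YFP filter, the genes clustered, the normalization before clustering, the denominator, the centring and the bounds on mt- share. Another left out the cells marked as doublets. Python 3.11.15, numpy 2.4.6, scipy 1.17.1, pandas 2.3.3 and matplotlib 3.10.9 were used.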

Additional observations from a re-analysis of the deposited data

How the results depend on the processing

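Of 83 recomputed values 59 stayed within the counting interval of the value as reported or, for counts of members, within 1.5 times the count. Some of the 59 could hardly move. Leaving out the 3 CT and 1 Opa1 cKO cells marked as doublets changed almost no cells. With a single bound at 1% the low cells were the same by construction. No paired analysis was possible because each genotype was 1 library, and leaving out a replicate was not possible either. The member sum in NSC pool-like cells stayed positive, from 0.12 to 0.21, in all alternatives run, and the counts of members past the bounds ranged from 6 to 11 (0.5 or more) and from 1 to 4 (-0.5 or less). The small difference between low and normal mt- share turned from -0.03 to 0.0082 without the YFP filter, to 0.0042 with members, mt- and ISR genes left out of clustering, and to 0.047 with all UMIs as denominator. It was -0.20 relative to the median of all genes, -0.0094 with a single bound at 1% and -0.052 in cells of 2000 to 4000 UMIs. Its direction was therefore not settled by these data, and the cause of the turns was not tested apart from the denominator, which differs by construction.

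Without the YFP filter the low and normal ratios over CT were 0.17 and 0.16, and 1 member lay at -0.5 or less. With those genes left out of clustering the NSC pool-like ratio was 0.12 and the normal ratio 0.14. With all UMIs as denominator the NSC pool-like, low and progenitor ratios were 0.21, 0.23 and 0.30, and 1 member lay at -0.5 or less. Relative to the median of all genes the low and normal ratios over CT were 0.091 and 0.25, the activated NSC-like ratio 0.016 and the CT progenitor over NSC pool-like ratio -0.68. With a single bound at 1% the normal ratio was 0.16. In cells of 2000 to 4000 UMIs, chosen after the data were seen, the NSC pool-like and low ratios were 0.13 and 0.11, the CT progenitor over NSC pool-like ratio -0.65, and 1 member lay at -0.5 or less. No activated NSC-like cluster separated without the YFP filter or with those genes left out, so no value was had there. Depth limits the isoforms of low count, and all comparisons of genotypes rest on 1 library each.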
